A study of Mus musculus with 19 samples.

Results

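The hotspots described here were places where breaks directed by the SPRT allele of PRDM9 fell on both homologs of the same mouse. They were chosen by 3 columns of the B6/SPRT hotspot table: an autosomal position, the SPRT allele as the assigned PRDM9 allele, and a B6 contribution to the DMC1 reads of 25 to 75%, ends included. The rule found 2200 hotspots, which is 23.8% of the 9247 autosomal SPRT hotspots of B6/SPRT (95% Wilson interval 22.9 to 24.7%), 29.5% of the 7456 that carried a B6 contribution, and 11.9% of all 18522 autosomal hotspots of that table. They held 21.5% of the DMC1 signal of SPRT hotspots. The other SPRT hotspots were 4450 with a B6 contribution above 75% (B6 side), 806 with one below 25% (SPRT side) and 1791 without a B6 contribution. The B6 contribution in B6/SPRT therefore chose the matched hotspots and is not a result about them.

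PRDM9 is a zinc finger protein of meiotic cells that binds DNA motifs, trimethylates lysine 4 of histone H3 (H3K4me3) on the nucleosomes around them and so places the DSBs that start recombination. The recombinase DMC1 coats the resected single-stranded DNA of each DSB, and single-stranded DNA sequencing (SSDS) of DMC1-bound fragments maps DSBs genome-wide. Motifs are eroded on the chromosomes of the lineage in which an allele has been active, so in a hybrid one allele often binds mainly the homolog from the other parent. A hotspot is matched, or symmetric, when both homologs are bound and cut.

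All mice were F1 males of a cross of C57BL/6 (B6) females with males of SPRET/EiJ (SPRT, *M. spretus*), and were analysed as adults at 10 weeks of age. Every male carried the SPRT *Prdm9* allele. The second allele was wild-type B6 (B6/SPRT), the humanized allele (Hum/SPRT) or the CAST allele (CAST/SPRT). In the humanized allele the mouse gene carries the human B allele zinc fingers. In the engineered CAST allele, on the B6 background, it carries the zinc fingers of *M. m. castaneus*. Whole testis was used, a mixture of germ cells and somatic cells, so an H3K4me3 value averages over all of them, and fewer cells with a mark cannot be told apart from less of it per cell. Each genotype had 1 DMC1 SSDS library. H3K4me3 ChIP-seq had 2 samples with 2 inputs in B6/SPRT males, 3 with 3 inputs in males with the humanized allele and 2 with 2 inputs in those with the CAST allele. Of the 3 in Hum/SPRT 1 is numbered as a second form of replicate 1, so it may not be a separate animal. Each genotype's samples shared 1 column in the deposited tables. There was thus no replicate error between genotypes, and no test between them was made. The spread is given as quartiles over hotspots, as 95% intervals (Wilson for shares, binomial order-statistic for medians), which cover counting error within a library only, and as the number of the 19 autosomes that shared a direction. Hotspots are not replicates of a genotype.

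No genome was used for the sequence of the hotspots. For 4 of the 2200 the center lay in a RefSeq promoter window (assembly GRCm38.p6, 250 bases before to 50 bases after a start site), and these windows are shown, 5′ to 3′ on the strand of the gene, as the sequence around a position that the SPRT allele used on both homologs. The bases are those of the reference assembly only, and any that differ on the SPRT homolog are not shown. The 21 capitals mark the bases centered on the deposited hotspot center. These hotspots were picked for position, after their values had been seen. Active promoters carry H3K4me3 without PRDM9, so their H3K4me3 values hold any such part too.
Arhgap25, chr6:87533210-87533509, minus strand: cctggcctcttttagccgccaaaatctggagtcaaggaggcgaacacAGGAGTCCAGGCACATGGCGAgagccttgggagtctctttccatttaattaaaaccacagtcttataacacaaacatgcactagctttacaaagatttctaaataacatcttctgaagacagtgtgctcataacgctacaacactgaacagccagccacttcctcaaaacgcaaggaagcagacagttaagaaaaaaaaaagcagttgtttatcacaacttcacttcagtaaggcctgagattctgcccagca
Gm34419, chr8:35095110-35095409, plus strand: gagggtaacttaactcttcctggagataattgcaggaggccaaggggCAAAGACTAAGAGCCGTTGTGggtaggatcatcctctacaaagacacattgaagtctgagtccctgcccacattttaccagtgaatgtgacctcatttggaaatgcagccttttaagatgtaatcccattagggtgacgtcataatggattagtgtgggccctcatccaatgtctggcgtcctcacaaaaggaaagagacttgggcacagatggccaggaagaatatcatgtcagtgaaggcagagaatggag
Gm39260, chr8:117423210-117423509, minus strand: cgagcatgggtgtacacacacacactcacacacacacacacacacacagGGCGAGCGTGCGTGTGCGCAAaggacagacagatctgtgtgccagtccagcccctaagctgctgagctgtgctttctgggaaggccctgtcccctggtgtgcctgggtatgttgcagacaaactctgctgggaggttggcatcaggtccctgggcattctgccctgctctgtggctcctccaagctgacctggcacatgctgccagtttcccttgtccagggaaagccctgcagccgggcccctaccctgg
Slc6a19os, chr13:73699705-73700004, plus strand: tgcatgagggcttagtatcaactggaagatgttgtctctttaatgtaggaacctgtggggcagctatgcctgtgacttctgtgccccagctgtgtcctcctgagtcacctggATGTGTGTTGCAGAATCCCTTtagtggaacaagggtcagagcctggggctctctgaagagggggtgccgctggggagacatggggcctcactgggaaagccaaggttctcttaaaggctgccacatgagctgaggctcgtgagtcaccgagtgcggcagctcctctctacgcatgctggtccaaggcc

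The center in the window of Arhgap25, a gene for a GTPase-activating protein, lay 193 bases before the start site. In B6/SPRT its B6 contribution was 48.6%, in Hum/SPRT it was 45.9% and in CAST/SPRT 56.1%, so it was matched in each genotype. The center in the window of the lncRNA gene Gm34419 also lay 193 bases before the start, and its B6 contribution was 29.4%, 22.4% and 22.8% in the same order. It passed the lower limit in B6/SPRT and fell under it in the other genotypes, while its H3K4me3 reads were 45.6%, 46.0% and 39.9% from B6. The hotspot at Gm39260, within Cmip, had a B6 contribution of 30.9% in B6/SPRT and 28.7% in Hum/SPRT. That at Slc6a19os, within Slc6a19, had 59.5% and 50%. Neither of these last hotspots had a CAST/SPRT hotspot within 500 bp, and their DMC1 signals in B6/SPRT (89.2 and 56.5) were below those of the Arhgap25 and Gm34419 hotspots (167.9 and 225.7). DMC1 signals are in the arbitrary units that the authors' caller gave.

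Matched SPRT hotspots had less DMC1 signal than B6-side SPRT hotspots, and more H3K4me3. The median DMC1 signal was 88.4 for matched hotspots (quartiles 49.6 and 172.2), 134.6 for the B6 side (67.6 and 237.3) and 64.2 for the SPRT side (37.3 and 114.7). The median was lower for matched than for B6-side hotspots on 19 of 19 autosomes, with a difference between -1.24 and -0.36 on the log2 scale. The median H3K4me3 enrichment over input, a ratio, was 9.31 (interval 9.05 to 9.53) for matched, 8.46 (8.29 to 8.61) for B6-side and 5.23 (4.95 to 5.47) for SPRT-side hotspots. It was higher for matched than for B6-side hotspots on 16 of 19 autosomes. The median input coverage was 19 reads per window for matched and for B6-side hotspots, and 18 for the SPRT side.

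Compared at like H3K4me3, matched hotspots again had the lower DMC1 signal. Ranked by enrichment over all 9247 SPRT hotspots and cut into 4 equal parts, the median DMC1 signal of matched against B6-side hotspots was 41.4 against 57.9 in the lowest part. It was 66.9 against 103.2 in the next, 93.9 against 169.8 in the next and 167.2 against 228.7 in the highest. The intervals of the matched and B6-side medians did not overlap in any of the 4 parts, whereas those of matched and SPRT-side medians overlapped in the lower 3 parts. The log2 of DMC1 signal over enrichment had a median of 3.39 in matched, 3.98 in B6-side and 3.73 in SPRT-side hotspots, and was lower in matched than in B6-side hotspots on 19 of 19 autosomes.

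**Figure D1:**
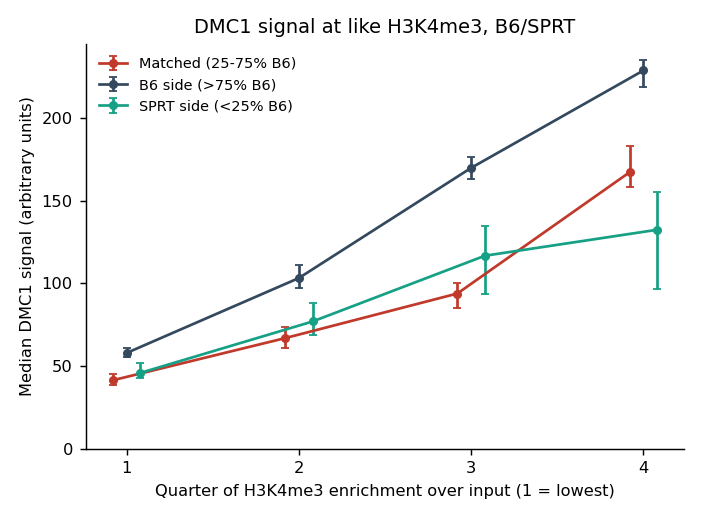
Median DMC1 signal (y axis, arbitrary units) of matched, B6-side and SPRT-side SPRT hotspots of B6/SPRT in 4 equal parts of H3K4me3 enrichment (x axis, 1 lowest), with bars for the 95% order-statistic interval of the median. Matched hotspots lie under B6-side hotspots in every part, from 41.4 against 57.9 to 167.2 against 228.7.

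H3K4me3 was found on both homologs at nearly all matched hotspots. Of the 2200, 2152 (97.8%, interval 97.1 to 98.3%) had 25 to 75% of their SNP-carrying H3K4me3 reads from B6, where the same held for 49.8% of all SPRT hotspots with such reads. The share was 13.5% for the B6 side, 55.5% for the SPRT side and 79.1% for hotspots without a B6 contribution. H3K4me3 was not part of the rule. The median number of SNP-carrying reads was 307 at a matched hotspot, with 22 of 2200 under 50 reads, and the median width of a hotspot's Wilson interval was 10.8 percentage points. These intervals take the SNP-carrying reads as independent. Their median exceeded the median ChIP coverage of 198 and how they were counted is not stated, so the intervals may be too narrow. At 1990 matched hotspots (90.5%) the whole interval lay within 25 to 75%. It lay above 75% at 8 and below 25% at none.

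The H3K4me3 share of matched hotspots leaned to B6 when set against 50%, as no B6 share of the input reads was given. The median B6 share of H3K4me3 at matched hotspots was 57.7% (quartiles 52.5 and 63.4%). The interval of the H3K4me3 share lay wholly above 50% at 1304 matched hotspots and wholly below 50% at 80. Even the 577 hotspots with a DMC1 contribution from 45% to under 55% had a median H3K4me3 share of 57.0% (56.4 to 57.7%). This lean was not particular to the SPRT allele: matched hotspots that the B6 allele (n = 649), the humanized allele (n = 1429) and the CAST allele (n = 1341) made in their own genotypes had medians of 55.2%, 55.3% and 54.3%.

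Over all SPRT hotspots with both values, the DMC1 contribution changed faster than the H3K4me3 share. Where 45 to 50% of H3K4me3 reads were from B6, the median DMC1 contribution was 36.1%, and it was 49.5% at an H3K4me3 share of 55 to 60%, 69.5% at 65 to 70% and 92.7% at 75 to 80%. Of the hotspots with an H3K4me3 share of 50 to 55%, 89.3% were matched, against 32.7% at 70 to 75% and 15.8% at 30 to 40%. Among the matched hotspots alone, Spearman's rank correlation between the shares was 0.54 (B6/SPRT, n = 2200), 0.61 (Hum/SPRT, n = 1925) and 0.54 (CAST/SPRT, n = 891), a description across hotspots that share a library.

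**Figure D2:**
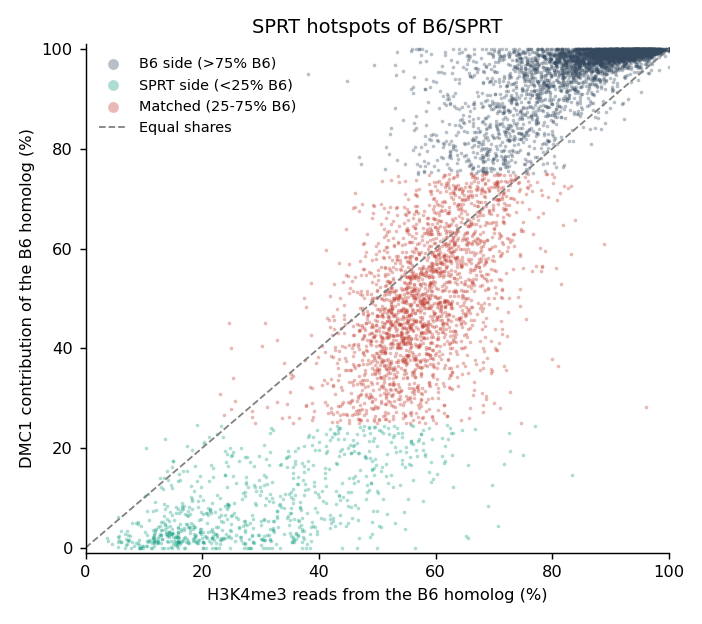
B6 share of SNP-carrying H3K4me3 reads (x axis, %) against B6 contribution to DMC1 reads (y axis, %) at the SPRT hotspots of B6/SPRT with both, with the dashed line at equal shares. The colors follow the y axis, which the rule used, and along the x axis the matched hotspots have a median of 57.7% and quartiles of 52.5 and 63.4%.

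The genes around the hotspots differed by class as well. The center lay within a RefSeq gene at 1470 of 2200 matched hotspots (66.8%, interval 64.8 to 68.8%), at 58.7% of B6-side (57.2 to 60.1%) and at 61.5% of SPRT-side hotspots (58.1 to 64.8%). Exons and introns were not separated, as the gene table holds only gene ends. The share was higher for matched than for B6-side hotspots on 15 of 19 autosomes. In the strongest of 4 equal parts by DMC1 signal it was 74.6% against 61.2%, and in the weakest 63.1% against 56.7%. Matched hotspots of the other alleles lay in genes at 69.5% (B6 allele in B6/SPRT), 69.8% (humanized) and 69.0% (CAST), against 61.6%, 65.8% and 59.0% on the B6 side and 64.0%, 68.6% and 64.4% on the SPRT side. For hotspots of B6/SPRT without an assigned allele it was 63.2% for matched, 57.0% for the B6 side and 63.2% for the SPRT side. Beside this, the ratio of SNP-carrying reads to ChIP coverage was lower for matched hotspots, with a median of 1.58 against 1.81 on the B6 side. These ratios exceed 1, so the SNP-carrying reads are not a part of the counted ChIP reads. How they were counted is not stated, and the part of this ratio in the result was not tested. A start site within 1 kb was rare in each class, at 1.45% of matched and 1.79% of B6-side hotspots, leaving out chromosome 18, for which no start sites were used.

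Matched hotspots were spread over all autosomes. Their share of SPRT hotspots with a B6 contribution was lowest on chromosome 19, at 25% (51 of 204, interval 19.6 to 31.4%), and highest on chromosome 2, at 35.4% (196 of 554, 31.5 to 39.5%). By position it was 24.9% in the first 20 Mb, 34.0% at 60 to 80 Mb and 24.6% at 120 to 140 Mb. The nearest SPRT hotspot of a matched hotspot was itself matched in 30.8% of cases, beside 29.2% for B6-side hotspots, with a median distance of 91 kb. The interval of the former (28.9 to 32.8%) holds the 29.5% of all.

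Nearly every matched hotspot was found again in Hum/SPRT, but this follows from the allele label. A center within 500 bp was present in Hum/SPRT for 2197 of 2200, beside 99.6% of all SPRT hotspots of B6/SPRT, 0.51% of its B6-allele hotspots and 7.70% of those without an assigned allele. The authors assigned alleles by comparison with mice of other genotypes, so presence in Hum/SPRT was in effect part of the choice and nothing is read from it. Of the 2197 hotspots, 2182 were labelled SPRT there too and 15 had no allele assigned. The median distance between the centers was 50 bp.

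In CAST/SPRT, which had 9592 autosomal hotspots against 15727 in Hum/SPRT, 1066 matched hotspots were found again (48.5%, interval 46.4 to 50.5%), below the 56.2% of all SPRT hotspots. The share was 67.8% for the B6 side and 36.2% for the SPRT side. It followed the DMC1 signal in B6/SPRT: in 4 equal parts by signal, 2.54%, 28.6%, 82.0% and 99.6% of matched hotspots were found, and 5.11%, 39.2%, 92.1% and 99.9% of B6-side hotspots. In 10 equal parts, matched hotspots were found less often than B6-side hotspots in 9, and in the strongest part all 164 matched and all 599 B6-side hotspots were found. The lower share of matched hotspots was seen on 19 of 19 autosomes. One matched hotspot was in neither other table, that centered at 103898426 on chromosome 7, about 3.96 kb from the olfactory receptor gene Olfr64. Its DMC1 signal was 19.8, its B6 contribution 51.9% and its H3K4me3 share 54.6% (46.7 to 62.3%) over 152 reads.

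**Figure D3:**
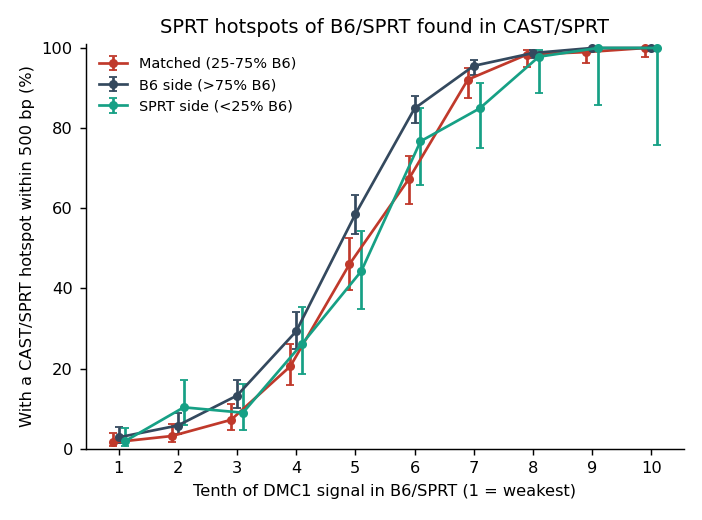
Percent of SPRT hotspots of B6/SPRT with a CAST/SPRT hotspot within 500 bp (y axis) in 10 equal parts of DMC1 signal (x axis, 1 weakest), for matched, B6-side and SPRT-side hotspots, with 95% Wilson intervals. In the sixth part 67.2% of matched and 84.9% of B6-side hotspots were found, and in the strongest all were.

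Where the same places carried a B6 contribution in another genotype, most stayed matched. With the humanized allele this held for 1792 of 1925 (93.1%, interval 91.9 to 94.1%), where 29% of all SPRT hotspots with both values were matched, 2.97% of the B6 side and 15.7% of the SPRT side. In CAST/SPRT it held for 781 of 891 (87.7%, 85.3 to 89.7%), where 21.1% of all were matched, 1.57% of the B6 side and 12.9% of the SPRT side. Of the Hum/SPRT hotspots that left the range, 70 fell below 25% and 63 rose above 75%. In CAST/SPRT 25 fell below and 85 rose above. Few went far, since in Hum/SPRT 1 was below 10% and 3 above 90%, and in CAST/SPRT 1 and 6.

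Staying matched differed with the value in B6/SPRT. With a contribution from 45% to under 55% in B6/SPRT, 99.2% of 497 stayed matched in Hum/SPRT and 95.8% of 236 in CAST/SPRT. From 25% to under 35% the shares were 80.8% and 80.9%, and from 65 to 75% they were 81.5% and 61.4%. In Hum/SPRT strong hotspots changed less. The median absolute change between B6/SPRT and Hum/SPRT was 7.09 percentage points in the weakest of the 4 parts by signal and 3.30 in the strongest. Between B6/SPRT and CAST/SPRT it was 7.78, 8.07 and 5.17 in the 3 stronger parts, where 89.9%, 89.4% and 85.3% stayed matched. The number of reads behind a DMC1 contribution is unknown, so no interval can be given for one hotspot. A change of more than 10 percentage points was seen at 22.1% of matched hotspots in Hum/SPRT, against 13.6% of all. It was seen at 32.4% in CAST/SPRT, against 11% of all, though one-sided hotspots lie near an end of the scale.

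The contribution of B6 moved slightly. The median change was -1.27 percentage points in Hum/SPRT (quartiles -6.21 and 3.57, below 0 on 17 of 19 autosomes) and 2.63 in CAST/SPRT (quartiles -3.96 and 9.10, above 0 on 18 of 19). Over all SPRT hotspots with both values it was -1.23 and -0.17, and the classes differed. In Hum/SPRT it was -1.63 on the B6 side and 5.24 on the SPRT side, and in CAST/SPRT -0.45 and 2.55. The one-sided classes were chosen on their B6/SPRT contribution and lie near an end of the scale. Likeness in size between their changes and the matched change is therefore not read. Both quartile ranges of the matched hotspots span 0, and the comparisons share the B6/SPRT library. The H3K4me3 share of the matched hotspots had a median change of 0.14 percentage points with the humanized allele (-0.12 to 0.41) and 0.00 with the CAST allele (-0.37 to 0.30). The intervals of the H3K4me3 share in B6/SPRT and Hum/SPRT overlapped at 95% of matched, 92.9% of B6-side and 94.4% of SPRT-side hotspots. Those in B6/SPRT and CAST/SPRT overlapped at 92.5%, 69.5% and 82.5%. The H3K4me3 share of one-sided hotspots moved outward in CAST/SPRT, by a median of 3.54 percentage points on the B6 side and -5.52 on the SPRT side.

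**Figure D4:**
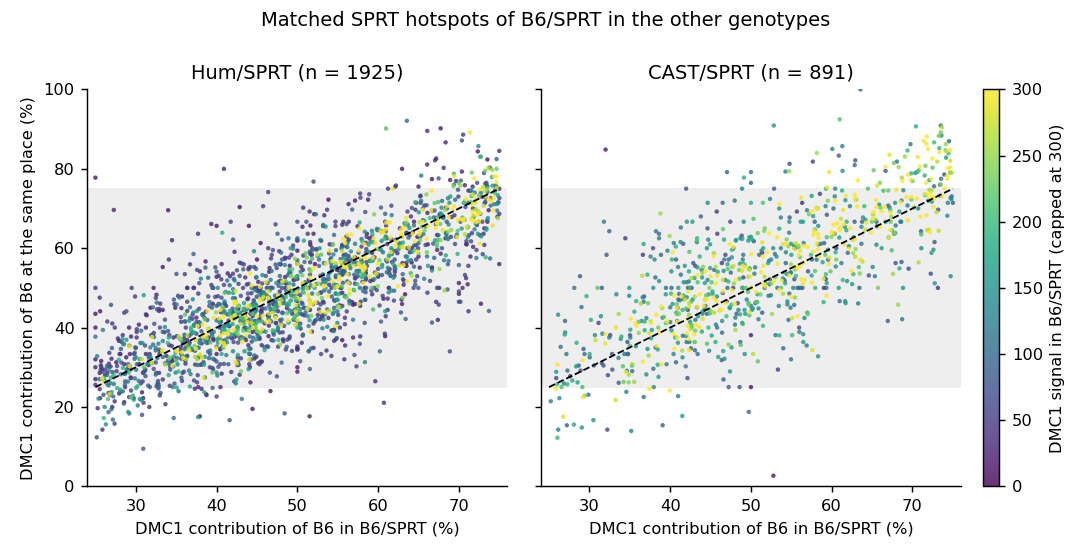
B6 contribution to DMC1 reads at matched SPRT hotspots of B6/SPRT (x axis, %) against that at the same place in Hum/SPRT (left, n = 1925) and CAST/SPRT (right, n = 891; y axis, %), colored by DMC1 signal in B6/SPRT, with the matched range shaded and the dashed line at equal values. The shaded range holds 93.1% of points on the left and 87.7% on the right, and the points outside it are mostly from hotspots near a limit.

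The DMC1 signal of matched hotspots fell behind that of B6-side hotspots in CAST/SPRT. Signals were set relative to the median log2 change of all shared SPRT hotspots, since their scaling to depth is not stated. The median relative signal in Hum/SPRT was -0.01 for matched and -0.01 for B6-side hotspots, with 0.07 and -0.05 in the weakest of 4 parts by signal. In CAST/SPRT it was -0.16 (-0.19 to -0.12) for matched, 0.08 (0.06 to 0.10) for B6-side and -0.16 (-0.23 to -0.09) for SPRT-side hotspots. In the strongest of the 4 parts by signal, where nearly all hotspots were found again, it was -0.01 (-0.07 to 0.05) for matched and 0.23 (0.21 to 0.25) for B6-side hotspots, and in the next -0.29 (-0.33 to -0.25) and -0.08 (-0.10 to -0.04). Matched lay below B6-side hotspots on 19 of 19 autosomes in CAST/SPRT and on 14 of 19 in Hum/SPRT. The relative H3K4me3 enrichment in CAST/SPRT differed less, with medians of 0.00 (-0.04 to 0.03) for matched and 0.03 (0.01 to 0.05) for B6-side hotspots.

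**Figure D5:**
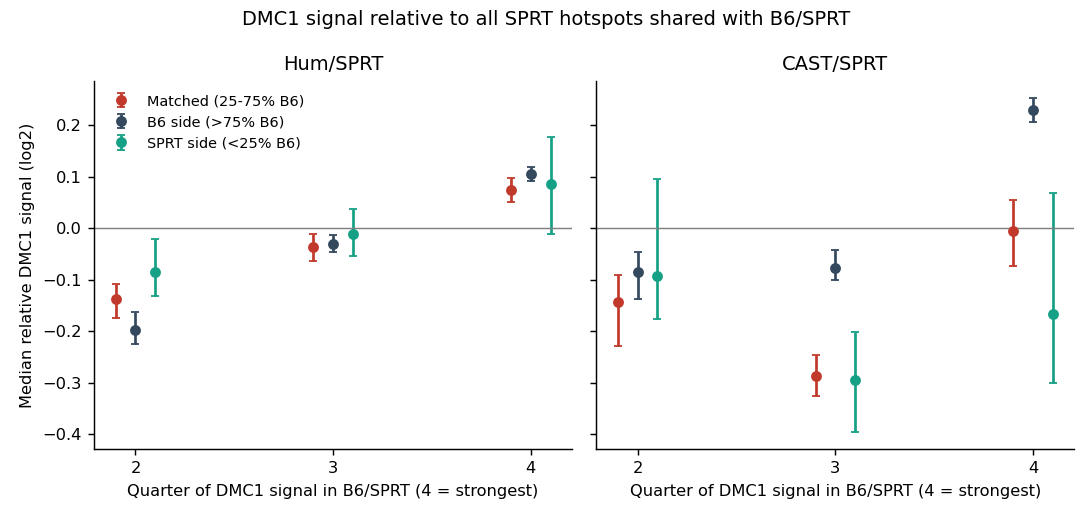
Median log2 DMC1 signal in Hum/SPRT (left) and CAST/SPRT (right) over B6/SPRT, relative to all shared SPRT hotspots (y axis, 0 at their median), for the 3 stronger of 4 equal parts of B6/SPRT signal (x axis), with 95% order-statistic intervals. The weakest part is not drawn, as only 16 of its matched hotspots were found in CAST/SPRT, and in the strongest part of CAST/SPRT matched hotspots lie at -0.01 and B6-side hotspots at 0.23.

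The same was seen in ranks. Among the 5175 SPRT hotspots present in all 3 tables, the 1064 matched ones had a median DMC1 percentile of 47.4 in B6/SPRT, 46.8 with the humanized and 42.9 (39.7 to 45.8) with the CAST allele, and the 3007 B6-side ones had 54.7, 53.9 and 57.0 (55.4 to 58.7). By H3K4me3 enrichment the matched ones ranked above the B6-side ones in each genotype, at 66.2, 64.6 and 61.9 against 48.2, 48.3 and 50.1. From B6/SPRT to CAST/SPRT the matched rank fell and the B6-side rank rose by H3K4me3 as well as by DMC1. Among all autosomal hotspots of a table, whatever the allele, matched hotspots had a median percentile of 63.5 in B6/SPRT, beside 67.5 for all SPRT hotspots. Those found in Hum/SPRT had 53.3 there, beside 58.9, and those found in CAST/SPRT had 46.0, beside 52.8. The tables differ in length and in their second allele, so these percentiles are not compared between genotypes.

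A set of 714 hotspots was matched in all 3 genotypes, which is 85.1% (interval 82.5 to 87.3%) of the 839 with a B6 contribution in each, beside 17.9% of all SPRT hotspots with a contribution in each. Another 74 were matched in Hum/SPRT and not in CAST/SPRT, 21 the other way round and 30 in neither. The 714 had a median B6 contribution of 49.4% in B6/SPRT, 47.7% with the humanized and 52.3% with the CAST allele, and 406 of them kept within 10 percentage points over the 3 genotypes. Their H3K4me3 share was 56.9% in each genotype, and 694 were within 25 to 75% by H3K4me3 in every genotype. The same rule was also applied in the other genotypes and followed into B6/SPRT. Of 2266 chosen in Hum/SPRT, 1800 of the 2040 with a contribution in B6/SPRT were matched there (88.2%, interval 86.8 to 89.6%), beside 27.5% of all. Of 939 chosen in CAST/SPRT, 764 of 829 were matched (92.2%, 90.1 to 93.8%), beside 21.8% of all. In the direction from B6/SPRT the shares were 93.1% for Hum/SPRT and 87.7% for CAST/SPRT, and the intervals of the 2 directions did not overlap for either genotype.

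The strongest matched hotspot lay within Ttc14 on chromosome 3, centered at 33809696 (mm10). Its DMC1 signal was 833.2 in the first genotype, 467.8 with the humanized and 142.9 with the CAST allele, within the top 1% of autosomal hotspots of each table. Its B6 contribution was 51.5%, 47.0% and 57.9%, and its H3K4me3 share 50%, 52.4% and 51.8%, so it was matched by both measures in each genotype. The hotspot within Sec62, a gene of protein translocation into the endoplasmic reticulum, was next at 712.1 (chromosome 3, 30801311). Its B6 contribution was 71.7% and 71.01% in B6/SPRT and Hum/SPRT, and 76.5% in CAST/SPRT, just outside the range. That within Thoc5, for a subunit of the mRNA export complex THO (chromosome 11, 4901791), had 74.0%, 71.8% and 75%. The other 3 of the 6 strongest lay 6.43 kb from the transketolase-like gene Tktl2 (chromosome 8, 66505309; 62.1%, 60.7% and 59.8%), within the RNA-binding protein gene Elavl2 (chromosome 4, 91388469; 43.4%, 43.4% and 53.2%) and within the deubiquitinase family gene Usp53 (chromosome 3, 122963312; 39.7%, 42.4% and 41.6%). Among these 6 strongest the H3K4me3 enrichment ran from 2.94 at Elavl2 to 15.5 at Usp53, so like DMC1 ranks went with unlike H3K4me3.

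Of hotspots matched in all 3 genotypes, those at Ttc14 and Tktl2 were among the 6 with the highest mean percentile. Another was within Pcmt1, for a protein repair methyltransferase (chromosome 10, 7646916), with 35.8%, 32.4% and 40.5% from B6. One was 147.8 kb from Bambi (chromosome 18, 3664194), with 42.2%, 46.5% and 42.3%, and one within Pcm1, a centriolar satellite gene (chromosome 8, 41322317), with 38.3%, 37.6% and 35.4%. Those at Pcmt1, Bambi and Pcm1 had less than an even share from B6 in every genotype, and each stayed within 10 percentage points over the 3.

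Among matched hotspots in the strongest of the 4 parts by signal, the contribution changed by more than 10 percentage points at 23 of 404 in Hum/SPRT (5.69%) and at 77 of 382 in CAST/SPRT (20.2%). The share over all SPRT hotspots of this part was not computed, so nothing particular to matched hotspots is read from these counts. The matched hotspots with the largest changes are described here. The largest rise in each of the other genotypes was at 3837769 on chromosome 4, within the lncRNA gene Gm32823, from 61.0% up to 90.2% with the humanized allele and 92.5% with the CAST allele. Its H3K4me3 share went from 65.2% (61.4 to 68.8%) to 81.4% (78.7 to 83.9%) and 88.4% (84.5 to 91.4%). The hotspot within Nfia, a transcription factor gene (chromosome 4, 97667838), was next in Hum/SPRT, rising from 71.4% to 89.2% and 87.1%, with an H3K4me3 share of 71.7%, 83.5% and 84.4%. The H3K4me3 share rose at 2 of the 3 largest rises in Hum/SPRT and fell at the other. In the other direction, the hotspot within Mkln1 (chromosome 6, 31460730) fell from 68.2% to 49.4% and 45.8%, while its H3K4me3 share was 54.6% (50.03 to 59.2%), 54.8% (51.3 to 58.2%) and 45.7% (40.8 to 50.7%). The last interval overlapped that of B6/SPRT and not that of Hum/SPRT. The other falls in Hum/SPRT were 3.11 kb from Gm41409 (chromosome 16, 63.0% to 47.5%) and 1.40 kb from the pseudogene Gm7049 (chromosome 13, 59.4% to 44.6%).

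In CAST/SPRT, the hotspot within Mbd2, a gene for a methyl-CpG-binding protein (chromosome 18, 70573610), moved to 68.8%, after 38.8% in B6/SPRT males and 37.4% in Hum/SPRT males. Its H3K4me3 share was 63.8% (59.9 to 67.4%), 60.4% and 61.2% (56.3 to 66.0%), so the DMC1 value moved and the H3K4me3 value stayed within its interval. The hotspot 98.2 kb from 4930552N02Rik (chromosome 4, 52716369) rose from 58.2% to 84% in CAST/SPRT and had 55.3% in Hum/SPRT. At the hotspot within Nectin3, a cell adhesion gene (chromosome 16, 46413119), the values went apart: the DMC1 contribution was 57.6%, 46.0% and 34.3%, and the H3K4me3 share 49.1% (44.6 to 53.5%), 57.7% and 69.3% (64.1 to 74.0%). The hotspot within Gm31466 (chromosome 3, 20467057) fell from 50.8% to 31.5% in CAST/SPRT, with an H3K4me3 share of 48.2% and 39.2%. The DMC1 signals of these 4 in CAST/SPRT lay between 25.4 and 47.3, and were 218.2 to 284.7 in B6/SPRT.

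The limits of the range cut through a continuous spread. Just inside the lower limit lay a hotspot within Fam126b at 25%, and just outside it those within Grm8 at 24.69% and within Map4 at 24.66%. The H3K4me3 shares of these 3 were 50%, 55.9% and 61.9%, the first over only 30 reads (33.2 to 66.8%). Just inside the upper limit was the hotspot within Abl2 at 75%, and just outside it those within Mtrex at 75.02% and near Gm36443 at 75.07%. Their H3K4me3 shares were 79.1% (75.05 to 82.6%), 57.0% and 75.6% (72.3 to 78.6%). The share at Abl2 thus lay above the matched range by H3K4me3, while the interval at Gm36443 spanned its upper limit. The Grm8 hotspot had 10.9% in Hum/SPRT, the Map4 hotspot 34.0%, the Abl2 hotspot 84.5% and the Mtrex hotspot 70.3%.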

How the data were processed

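DMC1 SSDS and H3K4me3 ChIP-seq with input were measured in testes of B6SPRTF1 males. The submitters' processing notes name BWA and mm10. The authors called hotspots and deposited 1 table per genotype. Its DMC1 signal was deposited with no stated scaling to depth, and the authors' fraction of DMC1 reads from B6 comes without read numbers, so its depth is unknown. The H3K4me3 values were deposited as counts of reads in 1000 bp windows (input and ChIP), the authors' ratio of enrichment, and a fraction of B6 reads beside the SNP-carrying reads it rests on. They were taken as pooled over samples. Of the value columns of these 3 files, 9 were left out (the authors' p-values and sharing marks), as were 2 files of the STUS cross.

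Autosomal hotspots were paired between tables by the nearest center within 500 bp, using scipy 1.17.1, numpy 2.4.6 and pandas 2.3.3 under Python 3.11.15 (figures: matplotlib 3.10.9). Pairing and intervals were tested on simulated data. Percentiles rank DMC1 signal among all autosomal hotspots of a table. Gene ends and promoter windows were from RefSeq (GRCm38.p6). The members and the rules for named hotspots were chosen with earlier results of these data known. Named hotspots were the 6 strongest, the 6 matched in all 3 genotypes with the highest mean percentile, the 3 largest rises and falls of B6 contribution in each other genotype within the strongest of 4 parts by signal, those found in neither other table, and the 2 nearest on each side of each limit. Some of these are not reported here. Alternatives changed the limits, the distance, the allele in the other table, the signal range, the reads required and the measure used to choose. With pooled columns, no replicate could be left out.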

Additional observations from a re-analysis of the deposited data

How the results depend on the processing

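Of 79 alternatives over 18 results, 55 stayed within the interval of the reported value, 23 moved and 1 reversed. With limits of 40 to 60%, an H3K4me3 share of 25 to 75% held for 98.9%, and 51.2% were found again in CAST/SPRT. Still matched were 71.2% (Hum/SPRT), 63.3% (CAST/SPRT) and 49.8% (all 3). The relative signal is given here as a difference, the median of matched minus that of B6-side hotspots. In Hum/SPRT this difference turned from -0.01 to 0.004975, within its interval. With 10 to 90%, the shares were 90.2% by H3K4me3, 97.1% still matched in Hum/SPRT and 88.5% in all 3, with a median change of -0.62 in Hum/SPRT. Among hotspots above the median DMC1 signal, the median signal of matched over one-sided hotspots moved from 0.732 to 0.907 and the enrichment from 1.17 to 1.25. There, H3K4me3 of 25 to 75% held for 98.6%, 90.1% were found in CAST/SPRT and 100% in Hum/SPRT. The difference in relative signal in Hum/SPRT, matched minus B6-side, was then -0.0307. Within 250 bp, 94.9% were found in Hum/SPRT, 46.2% in CAST/SPRT and 45.3% in both. With the SPRT allele required in the other table as well, 99.2% were found in Hum/SPRT and 45.9% in both. Chosen by H3K4me3 share instead, 69.3% were matched in Hum/SPRT and 64.4% in CAST/SPRT, with a median change of -0.77 in Hum/SPRT. The alternatives for the relative signals and the one leaving out hotspots with a start site within 1 kb were chosen after seeing the data. The difference in relative signal in CAST/SPRT, matched minus B6-side, ran from -0.27 to -0.24 over its alternatives. The cause of these moves was not tested. No paired analysis was possible because the samples of a genotype share 1 column, and for the same reason no sample could be left out. Unknown DMC1 read numbers limit the B6 contribution of weak hotspots most.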
